A study of Mus musculus with 14 samples.

Results

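The genes of MHC antigen presentation in the left ventricle (LV) were followed in 14 libraries of WT and HCN4F mice after Sham or transverse aortic constriction (TAC) surgery. Members were the genes whose name begins with H2-, the mouse name of the major histocompatibility complex (MHC), together with Cd74, Ciita, B2m, Tap1, Tap2, Tapbp and Nlrc5. Of the 49315 genes of the count table, 52 met this rule, and 27 of these had at least 10 reads in at least 2 libraries and were kept. They comprised 2 classical class I genes, 10 nonclassical class I genes, 3 classical class II genes, 4 nonclassical class II genes, 7 genes of the machinery and its regulators, and H2-Ke6, which lies in the complex but encodes a steroid dehydrogenase and no MHC molecule. Among the nonclassical class I genes, H2-K2 is annotated as a transcribed unprocessed pseudogene and H2-Q5 and H2-T10 as polymorphic pseudogenes.

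MHC class I molecules consist of a heavy chain, such as H2-K1 or H2-D1, bound to beta-2 microglobulin, the product of B2m. They carry peptides from the inside of nearly every nucleated cell to CD8 T cells, after the TAP transporter (Tap1, Tap2) has moved the peptides into the endoplasmic reticulum and tapasin (Tapbp) has helped to load them. Class II molecules, here the chains H2-Aa, H2-Ab1 and H2-Eb1, are made by professional antigen-presenting cells such as macrophages, dendritic cells and B cells, and show peptides of ingested proteins to CD4 T cells. Cd74, the invariant chain, guards the class II groove until H2-DM exchanges it for peptide, and H2-O restrains H2-DM, mainly in B cells. The transactivators Ciita and Nlrc5 drive class II and class I genes, and interferon gamma induces either.

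HCN4F mice carry a knock-in substitution of tyrosine 527 by phenylalanine in the pacemaker channel gene Hcn4, a gain-of-function change in every cell that uses the gene, and WT mice carry the unchanged allele. TAC narrows the aortic arch and loads the left ventricle with pressure, and Sham animals had surgery without the constriction. Male mice were operated at 10 to 12 weeks of age and the tissue was taken 5 weeks later. Polyadenylated RNA of whole LV tissue was sequenced from 4 WT-Sham, 4 HCN4F-Sham, 2 WT-TAC (replicates 2 and 3) and 4 HCN4F-TAC animals, which the study describes as biological replicates. The count table held 2 further columns named as WT-TAC that matched no sample label; they were not used here, so every WT-TAC value rests on 2 animals. In such bulk tissue, fewer cells of a type and less RNA per cell cannot be told apart.

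The libraries held 22309914 to 35210939 reads assigned to genes, and 3 reads, the smallest count taken as a floor, amounted to 0.0859 to 0.137 CPM (counts scaled to the library's size). Intervals and floors of this kind cover counting error only. The summed level of 6 cardiomyocyte markers differed by group without overlap, at 60721 to 63033 CPM in WT-Sham, 56632 and 57038 CPM in WT-TAC, 52551 to 56319 CPM in HCN4F-Sham and 44938 to 51055 CPM in HCN4F-TAC, and its part in the levels of the members was not tested. The summed level of the listed atrial markers was 16.0 to 24.7 CPM in 13 libraries and 48.6 CPM in HCN4F-TAC replicate 2. The knock-in leaves the Hcn4 transcript in place, so its level (3.49 to 13.5 CPM) does not check the genotype labels. WT-TAC replicate 2 had the lowest level of the 14 libraries for H2-K1, H2-D1 and B2m.

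Together the 27 members took 0.0776% to 0.147% of the reads of a library. Levels between genes are compared here per kilobase of exon, as the mean CPM over the 14 libraries divided by the exon length. On this scale B2m stood first with 207 CPM per kb, ahead of H2-D1 with 100.2, Cd74 with 65.0 and H2-K1 with 54.0 CPM per kb. Tapbp reached 24.0, H2-Eb1 22.5, H2-Ab1 18.3, H2-Q4 13.6, Tap2 9.92 and H2-Aa 7.94 CPM per kb. The transactivators were scarce, with 0.538 CPM per kb for Nlrc5 and 0.169 CPM per kb for Ciita. H2-Ob, with 0.106 CPM per kb, was the lowest of the 27.

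The other 25 genes of the rule stayed below the minimum, and 14 of these had no read in any of the 14 libraries. H2-Ea-ps, the alpha chain gene that pairs with H2-Eb1 and is annotated as a pseudogene, was among the genes with no read, which allows a level of up to 0.0859 to 0.137 CPM per library. H2-Eb2 reached at most 3 reads and H2-Oa, the partner chain of H2-Ob, at most 7 reads in a library. H2-Q10, a secreted class I gene known from liver, reached at most 9 reads, and most of the other H2-M genes, several of them known from the vomeronasal organ, had none. All 27 members that passed the minimum were also among the 15292 genes tested.

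The class I heavy chain genes resemble each other closely in sequence, above all H2-Q6 and H2-Q7 but also H2-K1, H2-D1, H2-Q4, H2-T22 and H2-T10, and reads can be shared or lost between such copies. How the authors' counting treated them and the strand is not given in the sources used here, so the split of reads between single class I genes is uncertain. Whether reads were also shared between the neighbouring class II genes H2-DMb1 and H2-DMb2 was not examined. B2m, Cd74, Nlrc5 and Ciita lie outside the H2 gene family. H2-K1 (ENSMUSG00000061232) lies at chr17:33996017-34000347 on the minus strand of GRCm38, and H2-D1 (ENSMUSG00000073411) at chr17:35262730-35267499 on the plus strand, with the class II genes H2-Ab1 (chr17:34257689-34269419), H2-Aa (chr17:34282744-34287823) and H2-Eb1 (chr17:34305867-34316674) between them. B2m (ENSMUSG00000060802) lies apart at chr2:122147686-122153083.

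Promoter sequences were read for the members because class I and class II genes are known for shared upstream boxes through which their transactivators act. RefSeq windows (GRCm38.p6) of the 250 bases before a start were at hand for 18 of the 27 members. They were searched on both strands for CCAAT (the Y box, ATTGG on the other strand), AGCAAC (an X box core), GAAANNGAA (an interferon-type element) and GGGANTCCC (a kappa B element). The 18 members had 20 windows, as H2-K1 and H2-DMa had 2 each, and all genes together had 32851. CCAAT was found in 19 of the 20 windows, beside 33.8% of all windows; a window of H2-DMa lacked it, and the match in its other window lay before a start whose bases were not in the transcripts of the gene. AGCAAC was found in 2 windows, of H2-Eb1 and H2-Ob, beside 12.2% of all windows. GAAANNGAA was found in 3 windows, of B2m, H2-T22 and H2-T23, beside 7.13% of all windows. GGGANTCCC was found in 5 windows, of H2-D1, H2-K1 (in both, which overlap), H2-Q6 and H2-Q7, beside 0.636% of all windows. H2-Ab1, Cd74, Tap2, Nlrc5, Ciita, H2-T24, H2-Q5, H2-K2 and H2-T10 had no window. These matches are descriptions of letters, not sites of binding. A window without a match to these exact strings may still hold a variant of a box.

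The windows of 4 members are shown 5′ to 3′ on the strand of the gene, with the matches in capitals, to set the class I promoters beside those of class II. They are H2-K1 (chr17:34000348-34000597, minus strand), B2m (chr2:122147437-122147686, plus strand), H2-Aa (chr17:34287824-34288073, minus strand) and H2-Eb1 (chr17:34305617-34305866, plus strand).
H2-K1: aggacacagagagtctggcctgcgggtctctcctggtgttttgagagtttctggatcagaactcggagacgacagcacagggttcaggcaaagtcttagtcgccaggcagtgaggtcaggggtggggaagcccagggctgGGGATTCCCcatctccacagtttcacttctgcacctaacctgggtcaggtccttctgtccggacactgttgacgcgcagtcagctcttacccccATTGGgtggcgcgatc
B2m: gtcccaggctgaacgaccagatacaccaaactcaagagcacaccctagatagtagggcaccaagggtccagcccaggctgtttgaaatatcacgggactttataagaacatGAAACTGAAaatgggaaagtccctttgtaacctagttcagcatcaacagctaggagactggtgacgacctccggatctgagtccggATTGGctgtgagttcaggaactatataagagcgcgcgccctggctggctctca
H2-Aa: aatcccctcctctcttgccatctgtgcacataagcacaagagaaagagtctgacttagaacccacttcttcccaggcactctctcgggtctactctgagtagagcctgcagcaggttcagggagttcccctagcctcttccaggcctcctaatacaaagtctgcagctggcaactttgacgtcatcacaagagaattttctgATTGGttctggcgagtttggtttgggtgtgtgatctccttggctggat
H2-Eb1: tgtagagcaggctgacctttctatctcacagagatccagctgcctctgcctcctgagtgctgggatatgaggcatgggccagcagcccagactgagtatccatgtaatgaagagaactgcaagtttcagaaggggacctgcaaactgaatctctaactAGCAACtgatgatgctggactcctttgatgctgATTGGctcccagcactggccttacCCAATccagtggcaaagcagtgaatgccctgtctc
In H2-K1 the kappa B match lay 110 to 102 bases before the start and the CCAAT match 16 to 12 bases before it. In B2m the interferon-type match lay at 139 to 131 bases and the CCAAT match at 53 to 49 bases. In H2-Aa the CCAAT match lay at 48 to 44 bases, and in H2-Eb1 the X box match lay at 92 to 87 bases, upstream of CCAAT matches at 59 to 55 and 35 to 31 bases.

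The first question of the design was what pressure overload did to these genes in WT mice. Class I transcripts leaned lower after TAC: H2-K1 and the nonclassical gene H2-T22 passed the test, and 24 of the 27 members had a negative log2 fold change. The median over the members was -0.43, beside -0.023 over all 15292 genes tested. No member reached the call rule, an adjusted p under 0.05 and a log2 fold change beyond 1 in either direction (quasi-likelihood test of edgeR, adjusted by Benjamini-Hochberg over all genes), which 0.706% of all genes met.

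H2-K1, a classical heavy chain, stood at 148, 218, 153 and 211 CPM in WT-Sham replicates 1 to 4 and at 99.3 and 117 CPM in WT-TAC replicates 2 and 3. Both WT-TAC libraries lay below every WT-Sham library, and WT-Sham itself was split into a pair near 150 CPM and a pair above 200 CPM. The log2 fold change was -0.76 ± 0.18 (SE; edgeR adjusted p = 0.0348, n = 4 and 2). H2-T22, a nonclassical class I gene whose product is known as a ligand of gamma delta T cells, stood at 13.3, 20.6, 12.8 and 20.9 CPM in WT-Sham and at 9.16 and 10.8 CPM in WT-TAC. Its log2 fold change was -0.76 ± 0.19 (edgeR adjusted p = 0.0377), again with no overlap between the groups. By the adjusted p alone, 2 members were lower and none was higher, where 1.62% of all genes were lower.

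These passing values rested on few animals. Without WT-TAC replicate 2, without WT-TAC replicate 3, without WT-Sham replicate 2 or without WT-Sham replicate 4, no member passed; the log2 fold change of H2-K1 then was -0.64, -0.88, -0.66 and -0.68, with edgeR adjusted p-values of 0.204, 0.218, 0.0645 and 0.0874. With any 1 of the 14 libraries left out, 0 to 4 members passed, all lower, with 1 when HCN4F-TAC replicate 4 was dropped, 3 when replicate 3 of either Sham group was and 4 when HCN4F-Sham replicate 1 or 2 was. Without WT-TAC replicate 2 the median over the members was -0.28, with 20 negative and 3 at an unadjusted p under 0.05, and without WT-TAC replicate 3 it was -0.68, with 25 negative and 13 at that p.

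The other class I genes lay on the same side. H2-D1, the other classical heavy chain, stood at 245, 303, 237 and 312 CPM in WT-Sham and at 185 and 214 CPM in WT-TAC, a log2 fold change of -0.46 ± 0.16 (edgeR adjusted p = 0.107). B2m stood at 151, 214, 165 and 213 CPM in WT-Sham and at 116 and 146 CPM in WT-TAC, a log2 fold change of -0.51 ± 0.18 (edgeR adjusted p = 0.115). For these as well the 2 WT-TAC libraries were below the 4 WT-Sham libraries without overlap. Of the 10 nonclassical class I genes, 9 had a negative log2 fold change, with a median of -0.65. Among them H2-Q4 gave -0.55 ± 0.16 (edgeR adjusted p = 0.0551) and H2-M3, which presents formylated peptides of bacteria and mitochondria, gave -0.80 ± 0.22 (edgeR adjusted p = 0.0515). H2-T24 was the exception, with 0.25 ± 0.19.

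Over all members, 12 were lower in WT-TAC than in WT-Sham without overlap of the libraries and none was higher. With 2 against 4 libraries, 20% of all genes were lower in this way, so the members' count, 12 of 27, has that background. The members vary together and share the same 2 WT-TAC animals, so they are not 27 independent observations. The 12 were H2-K1, H2-D1, H2-K2, H2-Q4, H2-Q5, H2-Q7, H2-T22, H2-M3, B2m, Tap2, Nlrc5 and H2-Ke6. At an unadjusted p under 0.05 there were 11 members (7 without WT-Sham replicate 4), beside 22% of all genes. DESeq2 called 0 members as well under the same rule, beside 0.968% of the genes with an adjusted p when fitted on all groups and 0.977% when fitted on WT libraries only. By the adjusted p alone, the first of these fits passed 4 members, all lower (H2-K1, H2-M3, H2-Q4, H2-T22), beside 3.51% of genes that were lower in that fit. The second passed 7, all lower, beside 5.91% of genes.

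**Figure D1:**
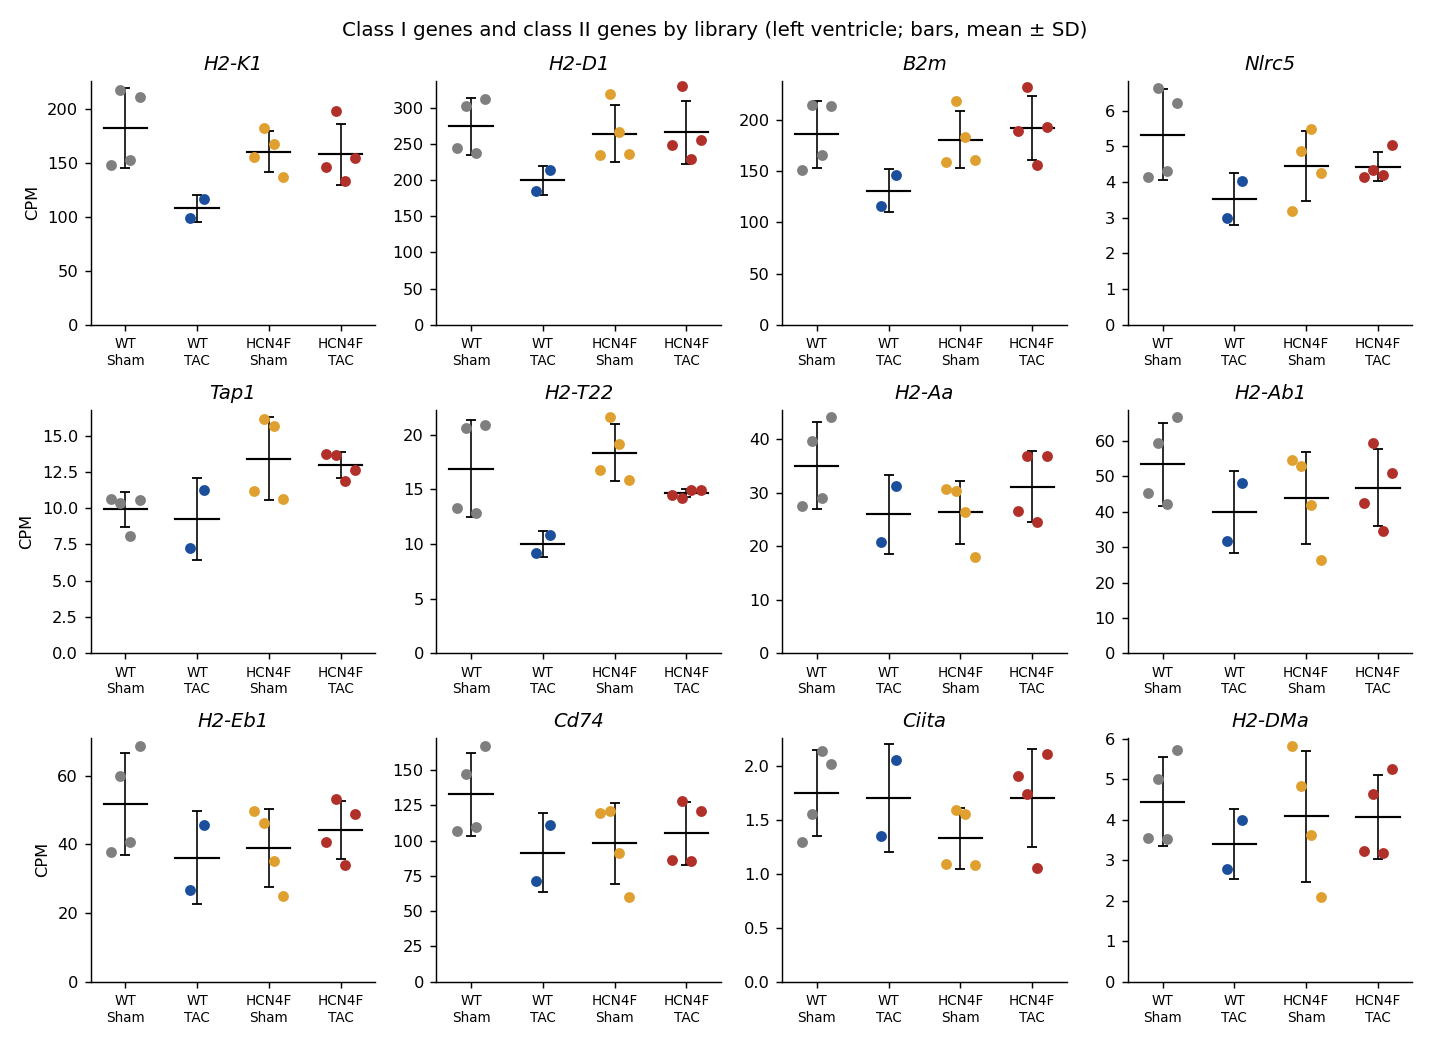
Level in CPM (linear axes from 0) of 12 members in each library, with 1 point per animal and the mean ± SD of its group (n = 4, and n = 2 for WT-TAC). The WT-TAC points lie below all WT-Sham points for H2-K1, H2-D1, B2m, Nlrc5 and H2-T22, while the class II genes, Cd74 and Ciita overlap between all groups.

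The class II genes were less clear. H2-Ab1, the beta chain of I-A, stood at 45.3, 59.5, 42.1 and 66.9 CPM in WT-Sham and at 31.7 and 48.1 CPM in WT-TAC, and its groups overlapped. The log2 fold changes of the 3 classical chains were -0.42 ± 0.31 for H2-Ab1, -0.43 ± 0.27 for H2-Aa and -0.51 ± 0.33 for H2-Eb1, with edgeR adjusted p-values of 0.456, 0.375 and 0.389. H2-Aa stood at 27.5, 39.7, 28.9 and 44.2 CPM in WT-Sham and at 20.7 and 31.2 CPM in WT-TAC. H2-Eb1 stood at 37.7, 60.0, 40.8 and 68.7 CPM in WT-Sham and at 26.6 and 45.7 CPM in WT-TAC. In each chain WT-TAC replicate 2 was below all WT-Sham libraries and WT-TAC replicate 3 was among them.

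The invariant chain gave a similar value. Cd74 stood at 107, 147, 110 and 167 CPM in WT-Sham and at 71.6 and 111 CPM in WT-TAC, a log2 fold change of -0.54 ± 0.30 (edgeR adjusted p = 0.327). The peptide editor subunits H2-DMa and H2-DMb1 gave -0.38 ± 0.34 and -0.15 ± 0.34. The transactivator of class I, Nlrc5, stood at 4.14, 6.64, 4.32 and 6.21 CPM in WT-Sham and at 3.00 and 4.04 CPM in WT-TAC, with -0.59 ± 0.23 (edgeR adjusted p = 0.139). The WT-TAC libraries of Nlrc5 lay below WT-Sham without overlap, whereas those of Ciita, the transactivator of class II, spanned 1.36 and 2.06 CPM inside the WT-Sham range of 1.29 to 2.14 CPM, with -0.02 ± 0.29.

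The genes of peptide transport and loading had small values. Tapbp stood at 78.4 to 90.1 CPM in WT-Sham and at 80.0 and 85.5 CPM in WT-TAC, a log2 fold change of -0.03 ± 0.09. Tap2 gave -0.23 ± 0.09 (edgeR adjusted p = 0.157) and Tap1 gave -0.09 ± 0.19. Tapbp and Tap2 varied least of all members, with a highest level 1.36 and 1.37 times the lowest over the 14 libraries, against 2.20 times for H2-K1 and 7.35 times for H2-Ob.

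The second question was what TAC did in HCN4F mice, and there no member passed the test. The median log2 fold change of the members was -0.014, beside -0.0067 over all genes, with 10 members positive and 17 negative. None was called, where 2.75% of all genes were, and none passed the adjusted p alone, where 13.6% of all genes did. At an unadjusted p under 0.05 there were 6 members, beside 28.3% of all genes. DESeq2 passed none, where 15.8% of genes passed when it was fitted on all groups and 12.8% when fitted on HCN4F libraries only. With 1 library of the compared groups left out, the median lay between -0.12 (without HCN4F-Sham replicate 1) and 0.081 (without HCN4F-Sham replicate 2), and 1 to 6 members were at an unadjusted p under 0.05, with 1 without HCN4F-TAC replicate 2 or 4, 3 without HCN4F-TAC replicate 1 and 2 when HCN4F-Sham replicate 2 or 4 was dropped.

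H2-K1 stood at 155, 182, 168 and 137 CPM in HCN4F-Sham and at 146, 199, 133 and 154 CPM in HCN4F-TAC. The ranges overlapped almost whole, and the log2 fold change was -0.02 ± 0.15. H2-D1 stood at 235, 320, 266 and 235 CPM in HCN4F-Sham and at 249, 329, 230 and 256 CPM in HCN4F-TAC, with 0.01 ± 0.13. B2m stood at 159, 218, 184 and 161 CPM in HCN4F-Sham and at 189, 232, 156 and 193 CPM in HCN4F-TAC, with 0.09 ± 0.14. Replicate 2 was the highest of its group in either surgery for all 3 genes.

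The classical class II chains leaned upward, between 0.09 ± 0.25 for H2-Ab1 and 0.25 ± 0.22 for H2-Aa, with adjusted p-values of at least 0.496 (edgeR). H2-Ab1 stood at 54.6, 52.9, 41.8 and 26.5 CPM in HCN4F-Sham and at 42.4, 59.6, 34.5 and 50.8 CPM in HCN4F-TAC. HCN4F-Sham replicate 4 had the lowest level of the 14 libraries for H2-Ab1, H2-Aa, H2-Eb1 and Cd74, at 26.5, 17.9, 24.8 and 60.3 CPM. Only H2-T22 and Tap2 were lower in HCN4F-TAC without overlap, 2 of 27 members beside 7.16% of all genes, with -0.32 ± 0.15 and -0.16 ± 0.07.

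The largest positive values in HCN4F belonged to 2 nonclassical class II genes that are scarce in the ventricle. H2-Ob, the beta chain of the H2-DM inhibitor, stood at 0.414, 0.639, 0.542 and 0.392 CPM in HCN4F-Sham and at 1.08, 1.09, 0.459 and 0.895 CPM in HCN4F-TAC. H2-DMb2, an alternative beta chain of the peptide editor, stood at 0.339, 0.730, 0.470 and 0.211 CPM in HCN4F-Sham and at 0.788, 1.42, 0.283 and 0.854 CPM in HCN4F-TAC. In each, 3 of the 4 HCN4F-TAC libraries lay above all HCN4F-Sham libraries and replicate 3 lay among them. The log2 fold changes were 0.84 ± 0.36 and 0.99 ± 0.42 (edgeR adjusted p = 0.140 and 0.129). Without HCN4F-TAC replicate 3 both were called, at 1.05 and 1.28 with edgeR adjusted p-values of 0.0499 and 0.0222.

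The smallest p of the members for TAC in HCN4F belonged to a gene on the other side. H2-K2, scarce and annotated as a transcribed pseudogene, gave -0.66 ± 0.25 with overlapping groups (edgeR adjusted p = 0.0833), and passed without HCN4F-Sham replicate 1 at -0.80 (edgeR adjusted p = 0.0422). H2-Ke6, the steroid dehydrogenase gene, gave -0.39 ± 0.18 (edgeR adjusted p = 0.159) and passed without HCN4F-Sham replicate 3 at -0.56 (edgeR adjusted p = 0.0235).

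B cell markers were examined in the same libraries. All 4 tested B cell markers had a positive log2 fold change for TAC in HCN4F, with a median of 1.00, and Cd79a, the signaling chain of the B cell receptor, was called at 1.5 ± 0.33 (edgeR adjusted p = 0.00699). Cd79a stood at 0.565, 0.822, 0.542 and 0.272 CPM in HCN4F-Sham and at 1.33, 1.88, 0.989 and 1.87 CPM in HCN4F-TAC. The summed level of the 6 listed markers was 4.07 to 7.21 CPM in HCN4F-Sham and 6.14 to 9.15 CPM in HCN4F-TAC, and no listed marker was at 0 in all libraries. Of 6 fibroblast markers, 4 passed as higher in this comparison as well (edgeR), beside 7.2% of all genes. The part of B cells or other cell types in the levels of H2-Ob and H2-DMb2 was not tested. H2-DMb1, the usual beta chain beside H2-DMb2, gave -0.01 ± 0.28, and sharing of reads between these genes was not examined.

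**Figure D2:**
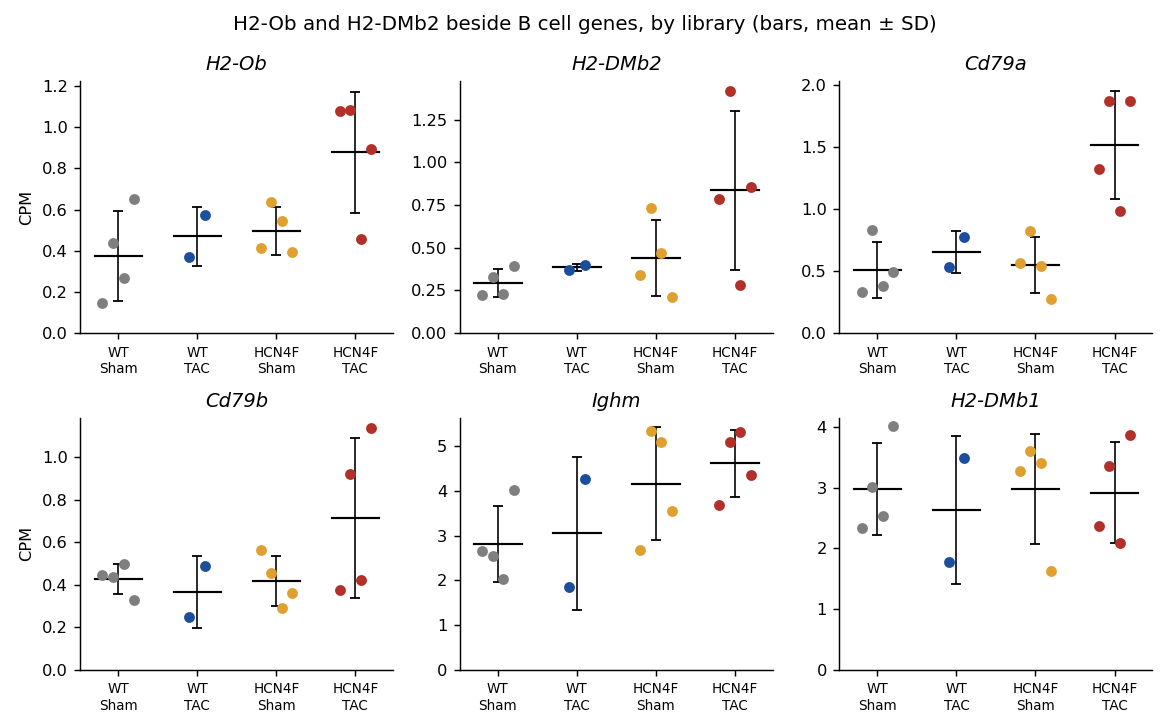
Level in CPM (linear axes from 0) of H2-Ob, H2-DMb2 and H2-DMb1 beside the B cell genes Cd79a, Cd79b and Ighm in each library, with 1 point per animal and the mean ± SD of its group. In HCN4F-TAC, 3 of 4 points of H2-Ob and H2-DMb2 and 4 of 4 points of Cd79a lie above all HCN4F-Sham points, while H2-DMb1 overlaps between all groups.

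The genotypes were next compared without pressure overload. Between HCN4F-Sham and WT-Sham, 13 members had a positive and 14 a negative log2 fold change, with a median of -0.0039, beside 0.0048 over all genes. No member was called (0.209% of all genes) and none passed the adjusted p alone (0.471% of all genes) with edgeR. DESeq2 passed none either, where 2.68% of genes passed when it was fitted on all groups and 3.02% when fitted on Sham libraries only. At an unadjusted p under 0.05 there were 2 members, H2-T24 and Tap1, beside 15.2% of all genes. With 1 library of either group left out, the median lay between -0.11 (without HCN4F-Sham replicate 2) and 0.093 (without HCN4F-Sham replicate 4), and 2 to 4 members were at that p, with 4 without WT-Sham replicate 2.

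Tap1, a subunit of the peptide transporter, was the only member without overlap, 1 of 27 beside 3.89% of all genes that were higher in this way. It stood at 10.6, 10.4, 8.11 and 10.6 CPM in WT-Sham and at 11.2, 16.2, 15.7 and 10.7 CPM in HCN4F-Sham, a log2 fold change of 0.43 ± 0.15 (edgeR adjusted p = 0.201). H2-T24, a nonclassical class I gene, stood at 8.09, 8.45, 5.77 and 7.97 CPM in WT-Sham and at 7.83, 12.9, 8.97 and 12.9 CPM in HCN4F-Sham, with 0.49 ± 0.15 (edgeR adjusted p = 0.151). It passed without HCN4F-Sham replicate 1, at 0.61 with an edgeR adjusted p of 0.0293. The classical class II chains gave negative values, from -0.29 ± 0.25 for H2-Ab1 to -0.42 ± 0.22 for H2-Aa, and Cd74 gave -0.44 ± 0.24 (edgeR adjusted p = 0.419). HCN4F-Sham replicate 4 was the lowest library for each of these 4 genes.

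After TAC no member passed edgeR's test between the genotypes. Both classical and 7 of the 10 nonclassical class I genes were higher in every HCN4F-TAC library than in either WT-TAC library, beside 11.3% of all genes that were higher in this way, while H2-T24 and H2-Q5 overlapped and H2-K2 was lower. The WT-TAC libraries of this comparison are the same 2 animals as in the comparison of surgeries in WT, so the 2 sets of values are not independent. Of the 27 members, 24 had a positive log2 fold change of HCN4F-TAC against WT-TAC, with a median of 0.35, beside 0.0036 over all genes. None was called, where 0.0719% of all genes were, and none passed the adjusted p alone, where 0.111% did. At an unadjusted p under 0.05 there were 10 members, beside 12.5% of all genes. DESeq2 fitted on the TAC libraries alone passed 4 (B2m, H2-Q6, H2-Q7 and H2-T22), all higher, beside 0.911% of genes that were higher in that fit. Fitted on all groups it passed none, where 1.49% of genes passed.

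H2-K1 stood at 146, 199, 133 and 154 CPM in HCN4F-TAC against 99.3 and 117 CPM in WT-TAC, a log2 fold change of 0.55 ± 0.18 (edgeR adjusted p = 0.234). B2m gave 0.56 ± 0.18 (edgeR adjusted p = 0.224) and H2-D1 gave 0.41 ± 0.16 (edgeR adjusted p = 0.301). H2-Q4 stood at 34.4, 41.5, 33.3 and 35.1 CPM in HCN4F-TAC and at 20.9 and 28.9 CPM in WT-TAC, with 0.53 ± 0.16 (edgeR adjusted p = 0.178). H2-M3 stood at 3.57, 4.41, 3.64 and 3.99 CPM in HCN4F-TAC and at 2.05 and 2.43 CPM in WT-TAC, with 0.79 ± 0.22 (edgeR adjusted p = 0.170). All 5 of these genes were higher in each HCN4F-TAC library than in either WT-TAC library.

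Without overlap, 13 members were higher in HCN4F-TAC, beside 11.3% of all genes, and 1 was lower, H2-K2, beside 11% of all genes. Here too the members vary together and are not independent observations. The 13 were H2-K1, H2-D1, H2-Q4, H2-Q6, H2-Q7, H2-T10, H2-T22, H2-T23, H2-M3, B2m, Nlrc5, Tap1 and Tap2, which all belong to class I, its transport or its transactivator. H2-K2 stood at 1.29, 1.15, 0.989 and 0.732 CPM in HCN4F-TAC and at 1.44 and 1.66 CPM in WT-TAC, with -0.58 ± 0.29 (edgeR adjusted p = 0.430). The class II chains overlapped and gave 0.23 ± 0.31 for H2-Ab1, 0.26 ± 0.27 for H2-Aa and 0.29 ± 0.33 for H2-Eb1. Without WT-TAC replicate 2, 18 members were positive with a median of 0.14 and 1 member was under an unadjusted p of 0.05. Without WT-TAC replicate 3, 25 were positive with a median of 0.59 and 10 were under that p.

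The difference between the genotypes in their response to TAC was tested as an interaction. No member passed, nor did any other gene (0% of all genes). At an unadjusted p under 0.05 there were 5 members, beside 9.27% of all genes, and 7 with DESeq2, which passed none either, where 0.325% of genes passed. The 5 were H2-K1 (0.73 ± 0.23, edgeR adjusted p = 0.439), H2-M3 (0.79 ± 0.28), B2m (0.60 ± 0.23), H2-D1 (0.47 ± 0.20) and H2-Q4 (0.46 ± 0.20), all of class I, and positive values mean a log2 fold change for TAC that was higher in HCN4F than in WT. The classical class II genes and Cd74 were not under an unadjusted p of 0.05, but gave values of similar size with larger errors. These were 0.70 ± 0.43 for H2-Eb1, 0.68 ± 0.35 for H2-Aa, 0.51 ± 0.40 for H2-Ab1 and 0.64 ± 0.39 for Cd74. The interaction was positive for 23 of the 27 members, with a median of 0.47 beside 0.0070 over all genes. Single animals moved these values: without WT-TAC replicate 2 the median was 0.25 with 1 member at an unadjusted p under 0.05, and without WT-TAC replicate 3 it was 0.73 with 10. At that p there were 2 members without HCN4F-TAC replicate 2, 3 without WT-Sham replicate 2, WT-Sham replicate 4 or HCN4F-Sham replicate 4, 8 without HCN4F-Sham replicate 3 and 9 without WT-Sham replicate 1.

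**Figure D3:**
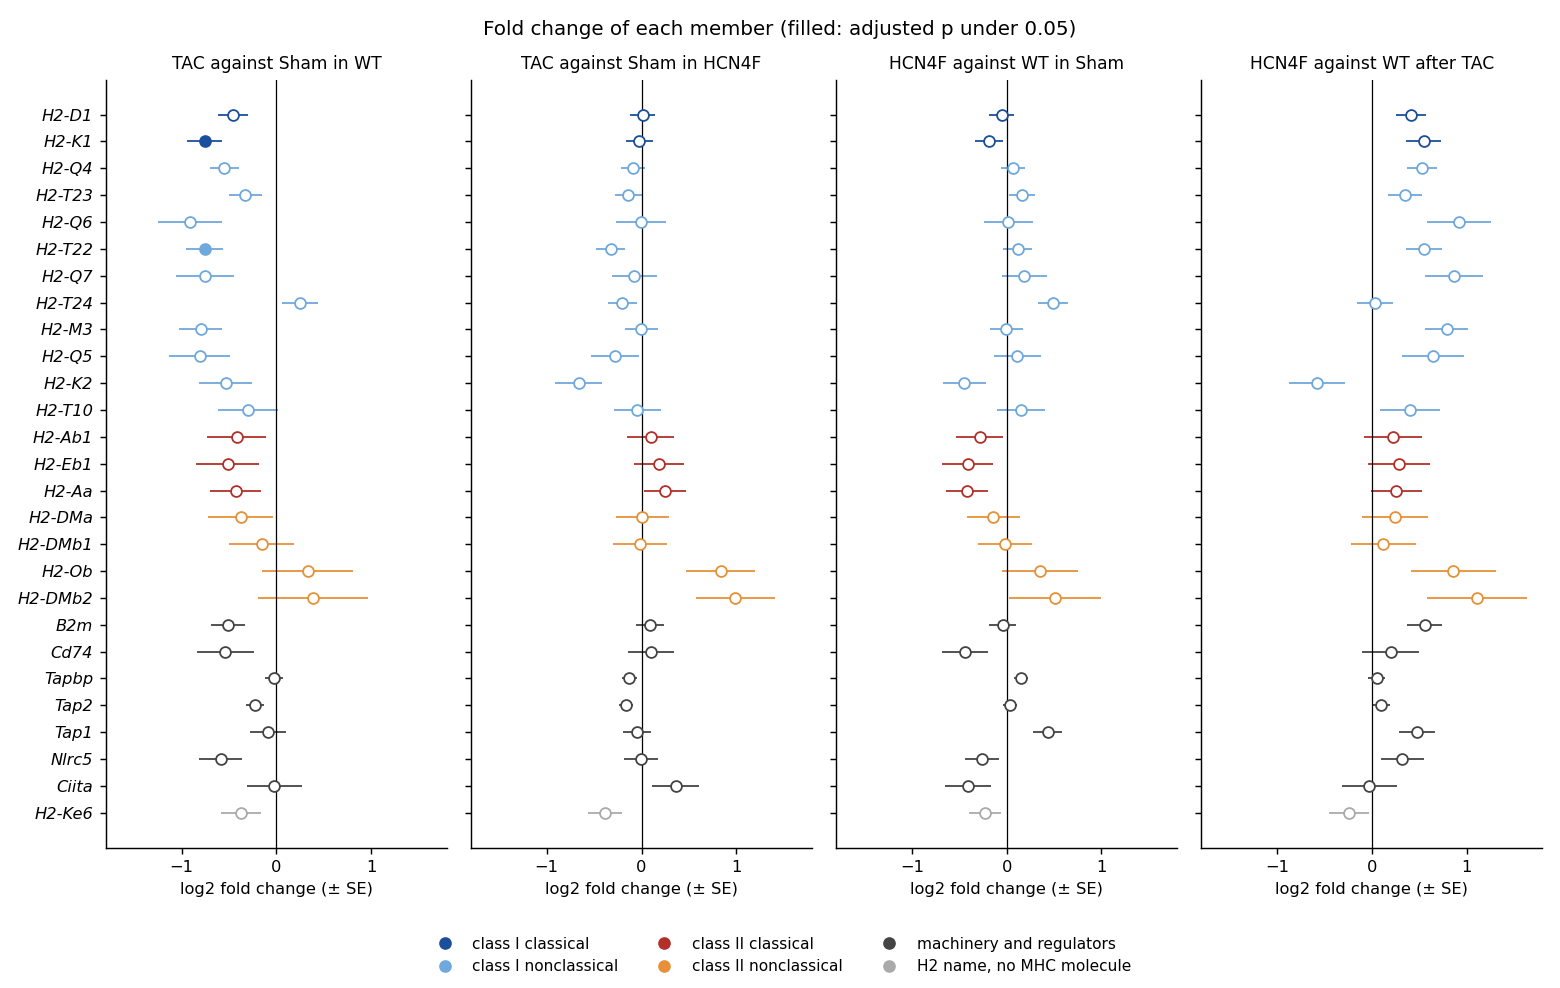
Log2 fold change ± SE of the 27 members in the 4 comparisons (edgeR), ordered by class and by mean level, with filled points where the adjusted p was under 0.05. In WT, 24 of 27 points lie left of 0 and H2-K1 and H2-T22 are filled, in HCN4F and in Sham the points scatter around 0, and after TAC 24 of 27 lie right of 0 with none filled.

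The summed levels gave the same picture by class. The 2 classical class I genes summed to 389.6 to 524 CPM in WT-Sham, 372 to 502 CPM in HCN4F-Sham, 284 and 331 CPM in WT-TAC, and 363 to 528 CPM in HCN4F-TAC. The 3 classical class II genes summed to 110.5 to 180 CPM in WT-Sham, 69.3 to 135 CPM in HCN4F-Sham, 79.0 and 125 CPM in WT-TAC, and 93.1 to 149.6 CPM in HCN4F-TAC. In class I the WT-TAC libraries were the lowest 2 of the 14, and in class II the lowest was HCN4F-Sham replicate 4.

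Macrophage markers were examined in the same comparisons. Of 13 macrophage markers, 11 had a negative log2 fold change for TAC in WT (median -0.28) and 13 a positive value for HCN4F-TAC against WT-TAC (median 0.56), with none passing in either (edgeR), and with 0 and 8 markers at an unadjusted p under 0.05, beside 22% and 12.5% of all genes. Their summed level was 243 to 298 CPM in WT-Sham, 256 to 340 CPM in HCN4F-Sham, 239 and 242 CPM in WT-TAC, and 244 to 389 CPM in HCN4F-TAC. None of the 13 markers was left out of the test for low counts, and their part in the levels of the members was not tested.

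Markers of other cell types were examined between the TAC groups as well, and none passed (edgeR). All 6 fibroblast markers were positive for HCN4F-TAC against WT-TAC (median 0.73), all 6 were at an unadjusted p under 0.05 (12.5% of all genes) and 5 were higher without overlap (11.3% of all genes). Col1a2, a collagen chain, gave 0.87 ± 0.19 (edgeR adjusted p = 0.0950). Their summed level was 952 to 1589 CPM in HCN4F-TAC and 745 and 898 CPM in WT-TAC, beside 797 to 810 CPM in WT-Sham and 760 to 982 CPM in HCN4F-Sham. All 9 tested dendritic cell markers were positive (median 0.82, 2 at an unadjusted p under 0.05), with overlapping sums of 22.6 to 25.8 CPM in HCN4F-TAC and 19.8 and 22.6 CPM in WT-TAC, and so were all 4 tested B cell markers (median 1.04, 2 at that p), with sums of 6.14 to 9.15 CPM and of 3.16 and 6.13 CPM. The 6 cardiomyocyte markers were all negative (median -0.21), and 3 of them were lower without overlap (11% of all genes). For TAC in WT, the neutrophil markers S100a8 and S100a9 were called higher (2.73 ± 0.62 and 2.91 ± 0.75, edgeR adjusted p = 0.0248 and 0.0409), with summed neutrophil markers of 0.574 to 1.31 CPM in WT-Sham and 2.43 and 3.74 CPM in WT-TAC and Ly6g at 0 in all libraries. WT-Sham was low in these markers also beside HCN4F-Sham, which summed to 1.96 to 2.97 CPM. The median over the 5 tested markers for HCN4F-Sham against WT-Sham was 2.24. None of these passed (edgeR), and 4 were at an unadjusted p under 0.05, beside 15.2% of all genes. Of the 6 cardiomyocyte markers, 4 were negative and 2 positive for TAC in WT, with a median of -0.072. Tnnt2 and Tnni3 passed as lower in that comparison (-0.39 ± 0.09 and -0.52 ± 0.14, edgeR adjusted p = 0.0257 and 0.0427), beside 1.62% of all genes, and none passed as higher. For TAC in HCN4F, all 6 fibroblast markers were positive (median 0.71) and 4 passed, beside 7.2% of all genes that passed as higher. Of these 4 the collagen gene Col1a1 was called (1.14 ± 0.18, edgeR adjusted p = 0.00125). Of the cardiomyocyte markers, Tnnt2, Tnni3 and Myh6 passed as lower and Actc1 as higher in that comparison (edgeR), beside 6.41% and 7.2% of all genes. Tnni3 gave -0.59 ± 0.11 (edgeR adjusted p = 0.00221). The part of these cell types in the members' levels was not tested.

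Across the 14 libraries the classical class II genes and Cd74 varied almost as a unit. The 6 pairs among H2-Aa, H2-Ab1, H2-Eb1 and Cd74 had Pearson r of 0.96 to 0.98 on log2 CPM, and within groups, as deviations from the group means, the median r was 0.97. H2-Ab1 and Cd74 gave r = 0.97 and Spearman rho = 0.96, with a permutation p of 1e-05, the smallest that 100000 permutations can give, and r = 0.93 without the 2 libraries farthest from the median of H2-Ab1. Within Sham r was 0.98 and within TAC 0.95. Here and below, these subsets pool both genotypes, so differences between the genotypes enter such values.

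Over all 14 libraries the class I genes formed a second, looser block. H2-K1 and H2-D1 gave r = 0.95 and rho = 0.88, but these copies may share reads. H2-D1 and B2m, which lie on different chromosomes and do not resemble each other as H2-K1 and H2-D1 do, gave r = 0.96 and rho = 0.94, with a permutation p of 1e-05 and r = 0.93 without the 2 farthest libraries, 0.97 within Sham and 0.97 within TAC. Over the 78 pairs of all class I genes and B2m the median r was 0.65, with 39 pairs past an adjusted p of 0.05, and over the 104 pairs between class I and class II genes it was 0.41, with 11 pairs past it. As deviations from the group means, these medians were 0.55 and 0.50. Within groups, class I was thus barely set apart from class II by this measure. These counts are for r. Adjustment was over the 351 pairs of members, of which 90 passed by r and 67 by rho. H2-T24, H2-K2 and H2-T10 had r of -0.02, 0.29 and 0.41 with H2-K1, none of which passed. H2-Ob and H2-DMb2 had r of 0.34 and 0.45 with H2-Ab1, and 0.87 with each other (rho = 0.88, permutation p = 2e-05 for r), with 0.76 within Sham and 0.91 within TAC.

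**Figure D4:**
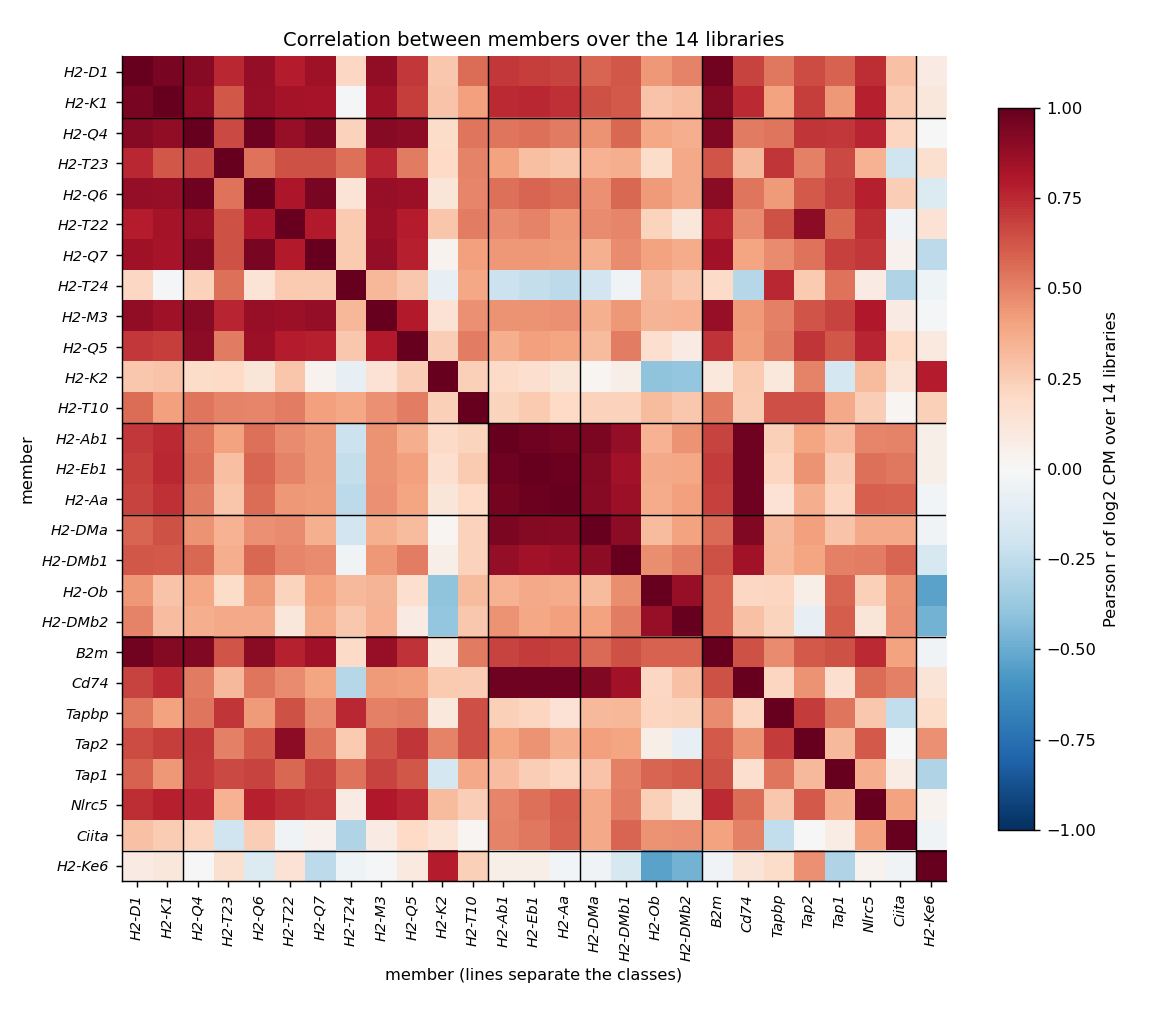
Pearson r of log2 CPM over the 14 libraries for each pair of the 27 members, on a colour scale from -1 to 1, with lines between the classes. H2-Aa, H2-Ab1, H2-Eb1, H2-DMa and H2-DMb1 form a dark red block, and Cd74, placed with the machinery genes, is dark red with these. Most class I genes form another block, red also with B2m and Nlrc5 among the machinery genes, and H2-Ob pairs with H2-DMb2.

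Whether the members followed their transactivators was examined in 16 relations, of Ciita and Nlrc5 with 8 members each. Nlrc5 passed with 3 class I genes: r was 0.78 with H2-K1, 0.74 with H2-D1 and 0.75 with B2m (permutation p = 0.00121, 0.00301 and 0.00209; adjusted p = 0.0161 for each over the 16 relations). Spearman rho was 0.79, 0.80 and 0.80 (permutation p = 0.00145, 0.00094 and 0.00099; adjusted p = 0.00773). Without the 2 libraries farthest from the median of Nlrc5 r was 0.61, 0.64 and 0.69, and none of the 16 relations then passed the adjustment. Within Sham r was 0.81, 0.78 and 0.80 and within TAC 0.74, 0.69 and 0.79, with none past an adjusted p of 0.05 (exact permutation tests over 8 and 6 libraries).

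Ciita did not pass with any of the class II genes. Its r was 0.59 with H2-Aa, 0.50 with H2-Ab1, 0.53 with H2-Eb1 and 0.51 with Cd74 (permutation p = 0.0247, 0.0686, 0.052 and 0.0652; adjusted p of at least 0.0792), and without the 2 farthest libraries it was 0.39, 0.16, 0.30 and 0.24. Ciita had a mean of only 1.61 CPM, so counting error weighs on its values. Nlrc5 with Tap1 gave r = 0.36 (permutation p = 0.201), with 0.69 without the 2 farthest libraries, 0.16 within Sham and 0.87 within TAC. With class II, Nlrc5 gave r of 0.60 for H2-Aa, 0.49 for H2-Ab1, 0.55 for H2-Eb1 and 0.56 for Cd74 (permutation p = 0.0227, 0.0749, 0.0376 and 0.0379; adjusted p of at least 0.0792), close to the values of Ciita. Whether Nlrc5 was related more closely to class I than to class II was not tested.

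H2-K1 and H2-Ab1 were then correlated with every tested gene of the pathway and marker lists, in 206 relations. The values within Sham and within TAC again pool both genotypes. By r, adjusted over these relations, 7 passed, and by rho 0 did, with an adjusted p for rho of at least 0.0776. Among the list genes that passed by r with H2-K1 were the immunoproteasome subunits Psmb9 and Psmb8 and the interferon-induced GTPases Irgm1 and Igtp. Psmb9 gave r = 0.82 and rho = 0.81 (permutation p = 0.00041 and 0.00098; adjusted p = 0.0301 for r and 0.0776 for rho), with r = 0.74 without the 2 farthest libraries, 0.58 within Sham and 0.97 within TAC. Irgm1 gave r = 0.84 and rho = 0.71 (permutation p = 0.00018 and 0.00574; adjusted p = 0.0301 for r and 0.145 for rho), with r = 0.72 without the 2 farthest libraries, 0.75 within Sham and 0.84 within TAC. With H2-Ab1, Rfxank, a subunit of the RFX factor that binds the X box, passed by r at r = 0.80 and rho = 0.82 (permutation p = 0.00073 and 0.00048; adjusted p = 0.0301 for r and 0.0776 for rho), with r = 0.70 without the 2 farthest libraries, 0.75 within Sham and 0.92 within TAC. The kinase gene Jak2 passed by r with H2-Ab1 in the other direction, at r = -0.77 and rho = -0.75 (permutation p = 0.00128 and 0.00279; adjusted p = 0.0439 for r and 0.144 for rho), with r = -0.73 without the 2 farthest libraries. No macrophage, dendritic cell, B cell, T or NK cell, neutrophil, endothelial or fibroblast marker passed with either gene, and the 13 macrophage markers had a median r of 0.39 with each.

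**Figure D5:**
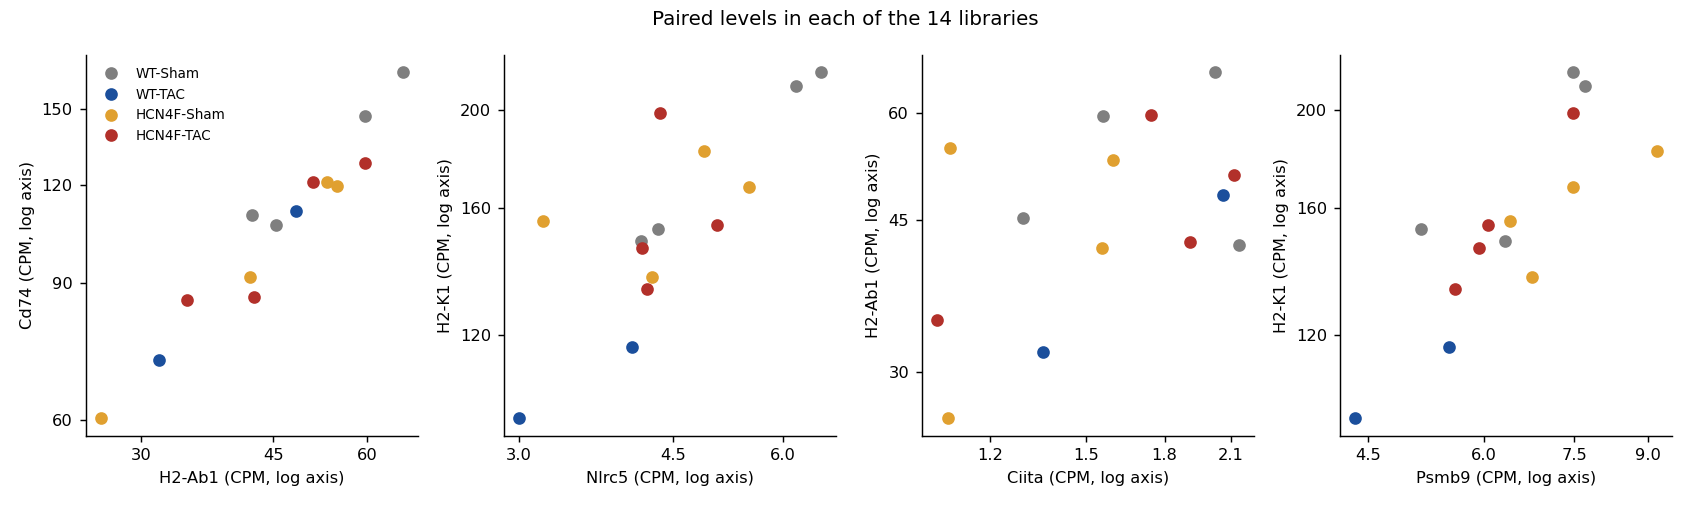
Levels in CPM (log axes) of 4 pairs of genes, with 1 point per library coloured by group. H2-Ab1 and Cd74 fall on a line, H2-K1 rises with Nlrc5 and with Psmb9 with the WT-TAC libraries at the lower end, and H2-Ab1 scatters against Ciita.

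The genes that supply class I with peptides were examined as a list. Of 10 listed genes of peptide supply and loading, 6 had a negative log2 fold change for TAC in WT, with a median of -0.23. Psme1, a subunit of the proteasome activator that interferon gamma induces, was lower in WT (-0.42 ± 0.12, edgeR adjusted p = 0.0491) and in HCN4F (-0.42 ± 0.09, edgeR adjusted p = 0.00771). Its partner Psme2 passed in HCN4F (-0.26 ± 0.08, edgeR adjusted p = 0.0499) and gave -0.36 ± 0.10 in WT (edgeR adjusted p = 0.0574). The immunoproteasome subunit Psmb8 gave -0.55 ± 0.17 for TAC in WT and 0.57 ± 0.17 for HCN4F-TAC against WT-TAC (edgeR adjusted p = 0.0822 and 0.190).

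Of 17 genes of interferon gamma signaling and its targets, 13 had a negative value for TAC in WT, with a median of -0.25. By the adjusted p, 1 passed as lower, beside 1.62% of all genes. That was Irgm1, an interferon-induced GTPase, at -0.51 ± 0.10 (edgeR adjusted p = 0.0146). Irgm1 stood at 12.8, 14.1, 13.4 and 14.7 CPM in WT-Sham, 9.49 and 9.82 CPM in WT-TAC, 10.9 to 12.9 CPM in HCN4F-Sham and 11.3 to 12.6 CPM in HCN4F-TAC, so that WT-TAC lay below each of the other groups, and HCN4F-TAC below WT-Sham, without overlap. Igtp, of the same GTPase family, gave -0.97 ± 0.29 (edgeR adjusted p = 0.075). None of the 17 passed for TAC in HCN4F, between the Sham groups or between the TAC groups (edgeR). In that order the median over the list was -0.08, 0.12 and 0.30. An unadjusted p under 0.05 was seen for 2, 3 and 3 genes, beside 28.3%, 15.2% and 12.5% of all genes.

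Of the class II processing and costimulation genes, 9 were tested and none passed in any comparison (edgeR). At an unadjusted p under 0.05 there were 1 for TAC in WT, 1 for TAC in HCN4F, 2 between the Sham groups and 4 between the TAC groups. The shares of all genes at that p were 22%, 28.3%, 15.2% and 12.5% in the same order. Their smallest p-values were for Cd40 for TAC in WT (0.56 ± 0.26, edgeR adjusted p = 0.221), Ctss for TAC in HCN4F (0.42 ± 0.19, edgeR adjusted p = 0.150), Lgmn between the Sham groups (0.21 ± 0.08, edgeR adjusted p = 0.223) and Cd80 between the TAC groups (1.61 ± 0.47, edgeR adjusted p = 0.170). The 7 genes of the class II enhanceosome, the RFX and NF-Y factors and Creb1 that Ciita binds, gave none either (edgeR). In the same order, 1, 0, 2 and 0 of these were at an unadjusted p under 0.05, beside the same shares of all genes. Rfx5 gave 0.42 ± 0.17 for TAC in WT (edgeR adjusted p = 0.168) and 0.46 ± 0.14 between the Sham groups (edgeR adjusted p = 0.142). Among 5 other MHC-like molecules, Fcgrt, the neonatal Fc receptor, was lower after TAC in HCN4F (-0.26 ± 0.08, edgeR adjusted p = 0.0365) and gave -0.24 ± 0.10 in WT (edgeR adjusted p = 0.151). Among the dendritic cell markers, Ccr7 was called higher after TAC in HCN4F at 1.68 ± 0.37 (edgeR adjusted p = 0.00658), at 2 to 4 reads per HCN4F-Sham library and 7 to 12 reads per HCN4F-TAC library.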

How the data were processed

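RNA of left ventricles was sequenced after polyA selection on an Illumina platform. The authors deposited raw read counts per gene without normalization, with GRCm38 as the genome build per the labels. The aligner, the counting program and the use of strand are not given in the sources used here. The study describes 16 samples, and 14 libraries were used here. 2 further columns of per-sample values, named as WT-TAC, matched no label and were not used. Of 49315 genes, 174 had no gene name, and 99.3% of identifiers were found in GENCODE M21, which gave positions and exon lengths. The 27 members and the gene lists were chosen with earlier results of these data known.

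The filterByExpr function by group left 15292 genes. Counts were scaled by TMM, and all groups were fitted in 1 quasi-likelihood model with edgeR 4.0.16 in R 4.3.3. An adjusted p under 0.05 passed, and a call also needed a log2 fold change beyond 1. For the interaction the adjusted p alone was used. Log2 CPM used a prior count of 2. DESeq2 1.42.0, which the study used, was an alternative. Relations used Pearson and Spearman coefficients with 100000 permutations. The correlations among members and with the lists were chosen after seeing the data. Fits were tested on simulated data. Depth was 22309914 to 35210939 reads, and p-values measure the spread between these animals.

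Named were all classical, class II and machinery members, the nonclassical class I members that passed or had the 3 highest levels, and list genes that passed or had the smallest p. Other nonclassical class I genes and list genes named beside a count, a difference without overlap or a correlation were chosen after their values were seen. Some list genes are not reported here. Alternatives were other fits, scalings and filters, the replicate number as a block, and leaving out each library. The plots used matplotlib 3.10.9 under Python 3.11.15.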

Additional observations from a re-analysis of the deposited data

Results flagged for a closer look

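In 6 of the 81 sets of 4 libraries examined, 1 library lay far from the other 3. Chance alone flags about 1 in 20 such sets. H2-DMb1 was lowest in HCN4F-Sham replicate 4 at 1.63 CPM, with the others at 3.27 to 3.61 CPM. H2-T23 was highest in HCN4F-Sham replicate 2 at 30.2 CPM, with the others at 22.1 to 22.7 CPM. Tap1 was lowest in WT-Sham replicate 3 at 8.11 CPM, with the others at 10.4 to 10.6 CPM. In HCN4F-TAC, replicate 1 stood apart for 3 genes. H2-Ke6 was highest there at 3.77 CPM (others 2.86 to 3.00 CPM), H2-T24 was lowest at 8.42 CPM (others 9.43 to 9.56 CPM) and Tapbp was lowest at 79.5 CPM (others 87.0 to 88.4 CPM).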

How the results depend on the processing

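No member was called in any comparison under the other tools, scalings and filters, nor with 1 library left out, except that 0 to 2 members were called for TAC in HCN4F (2 without HCN4F-TAC replicate 3). By the adjusted p alone 2 members passed for TAC in WT. The numbers of the replicates did not pair the samples: of 18 pairs with the same number 2 had a correlation of deviations above 0.1 (range -0.12 to 0.159). With the replicate block no member was called and 0 passed the interaction, and 1 member, H2-K1, passed by the adjusted p alone for TAC in WT. H2-T22 lost its adjusted p with the replicate block (-0.78, 0.0751), and with edgeR fitted on the WT libraries H2-K1 (-0.74, 0.0514) and H2-T22 (-0.74, 0.0923) lost theirs and H2-M3 passed (-0.78, 0.0370). With no filter on low counts H2-K1 gave -0.73 (0.127). Of the 16 relations with a transactivator, 3 passed over all libraries, and 0 in Sham, 0 in TAC, 0 on deviations from the group means and 0 without the 2 farthest libraries; the cause was not tested. Ciita with Tap1 gave r = -0.19 in Sham.

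Values near 0 changed sign in 35 of 108 cases with 1 library left out, none of them above 0.33 in size. For TAC in WT they ranged from -0.37 to 0.23 (Ciita), -0.074 to 0.022 (Tapbp), -0.75 to 0.23 (H2-DMb1), -0.45 to 0.18 (Tap1), -0.046 to 0.75 (H2-Ob). For TAC in HCN4F they ranged from -0.015 to 0.20 (B2m), -0.14 to 0.10 (Nlrc5), -0.15 to 0.051 (H2-K1), -0.22 to 0.24 (H2-DMa), -0.23 to 0.12 (H2-DMb1), -0.14 to 0.052 (Tap1), -0.087 to 0.22 (H2-Ab1), -0.11 to 0.11 (H2-D1), -0.17 to 0.14 (H2-Q6), -0.30 to 0.094 (H2-Q7), -0.18 to 0.21 (H2-T10), -0.12 to 0.081 (H2-M3), -0.074 to 0.22 (Cd74). Between the Sham groups they ranged from -0.15 to 0.032 (B2m), -0.37 to 0.093 (H2-DMa), -0.12 to 0.20 (H2-DMb1), -0.019 to 0.082 (Tap2), -0.16 to 0.014 (H2-D1), -0.0095 to 0.14 (H2-Q4), -0.017 to 0.27 (H2-Q5), -0.13 to 0.16 (H2-Q6), -0.11 to 0.31 (H2-T10), -0.13 to 0.12 (H2-M3). Between the TAC groups they ranged from -0.28 to 0.32 (Ciita), -0.26 to 0.72 (H2-DMb1), -0.041 to 0.56 (H2-Ab1), -0.0037 to 0.59 (H2-Aa), -0.049 to 0.73 (H2-Eb1), -0.068 to 0.15 (H2-T24), -0.081 to 0.56 (Cd74). Under other alternatives, for TAC in WT, Ciita gave 0.0015 with edgeR on the compared groups and 0.0071 with no filter. For TAC in HCN4F, edgeR on the compared groups gave -0.0035 for H2-DMa and -0.00062 for H2-D1, no filter gave 0.0040 for Nlrc5, 0.0043 for H2-Q6 and 0.0081 for H2-M3, the replicate block gave 0.0046 for Nlrc5 and 0.012 for H2-Q6, and H2-M3 gave 0.0021 with DESeq2 and 0.0022 with its size factors. The block also gave 0.0024 for H2-DMb1 and -0.00037 for H2-Q6 between the Sham groups and 0.012 for Ciita between the TAC groups. The 2 WT-TAC animals limit every comparison that uses them, and depth limits H2-Ob, H2-DMb2 and Ciita, at under 2 CPM in most libraries.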
